A study of Mus musculus with 16 samples.

Results

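Axon guidance cues and their receptors were described in developing mouse first molars: semaphorins with plexins and neuropilins, ephrins with Eph receptors, Slits with Robos, and netrins with Unc5 receptors. Members were all genes whose symbols match these 9 name patterns. This gave 68 of the 23337 genes counted, of which 35 encode ligands and 33 encode receptors. All 68 reached 10 counts in at least 1 of 16 libraries, so none was left as not detected.

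The libraries were poly(A) RNA-seq of whole first molar germs, the left and right germ of 1 wild-type CD1 mouse embryo together, all labelled male. For each of 8 embryos, numbered individuals 1 to 8, 1 library is labelled upper molar and 1 labelled lower molar. The embryos run from E14.5 to E18.0 (E, embryonic day) in steps of 0.5 day, 1 embryo per stage. A stage is therefore a single embryo, and the p-values below measure scatter about a smooth curve through 8 embryos, not litter-mates of 1 stage.

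Semaphorins signal through plexins, with neuropilins as co-receptors for most class 3 members, while ephrins bind Eph receptors on neighbouring cells and can signal in both directions. Slits act through Robo receptors and netrins through Unc5 receptors or Dcc, and both systems also steer blood vessels and epithelial branching. In mouse molars Sema3a made by the dental mesenchyme is known to hold back early nerve growth into the germ.

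Library totals over genes were 33146758 to 38584429 counts for the libraries labelled upper and 35918529 to 44565205 for those labelled lower. Levels are given as CPM, each gene's count scaled to that total. The libraries go against their labels in 2 ways. Pou3f3, a gene of the maxillary (upper) jaw, was at 9.97, 132, 8.24, 119, 6.45, 112, 10.1 and 109 CPM in the libraries labelled upper from E14.5 to E18.0, and at 4.89, 86.2, 5.14, 70.7, 5.46, 64.6, 4.45 and 60.1 CPM in those labelled lower. It thus alternated from stage to stage inside both labels. Xist, transcribed from the inactive X chromosome of females, spanned 1499 to 1831 CPM across labelled upper and 432 to 1928 CPM across labelled lower, although all are labelled male; in labelled lower individuals 1 and 2 had the 2 lowest values of 432 and 542. For this reason the groups are called labelled upper and labelled lower throughout. Stage and individual come from the same labels, so any match by stage or individual below rests on them. Each label was also run on its own flow cell, so tooth label and flow cell cannot be told apart.

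**Figure D1:**
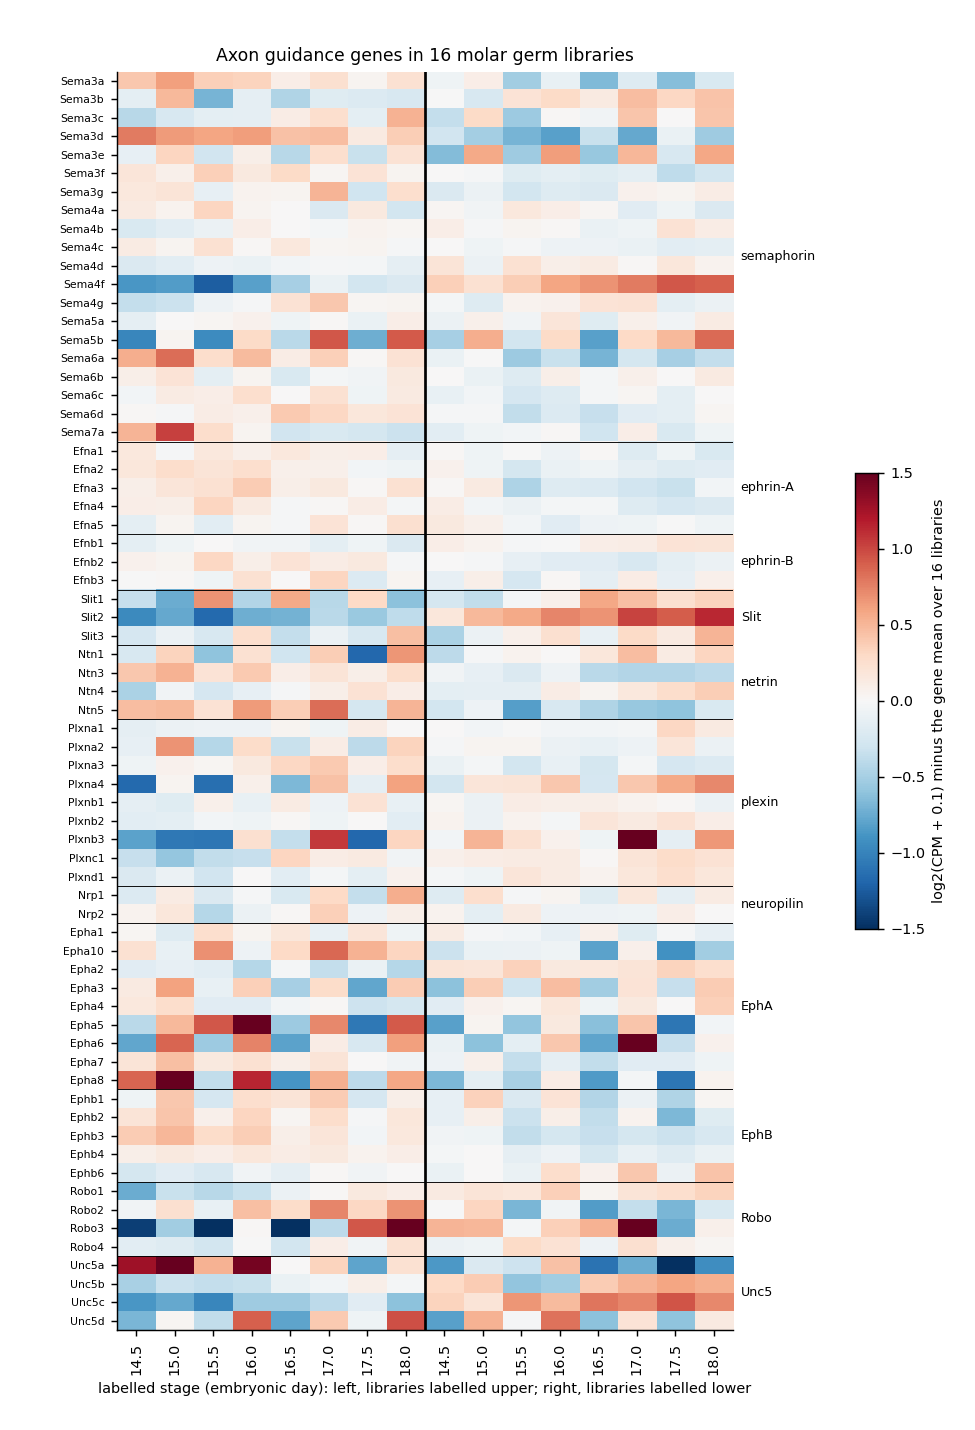
Level of each of the 68 genes in each of the 16 libraries (columns: labelled upper E14.5 to E18.0 on the left, labelled lower on the right), as log2(CPM + 0.1) minus the gene's mean over 16 libraries, coloured up to 1.5 in each direction. Many rows, among them Ephb2 and Robo2, show neighbouring stages that alternate, and Slit2, Sema4f and Unc5c are lower across labelled upper than across labelled lower.

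Levels between genes are compared only per kilobase of annotated exon (CPM per kb, mean over 16 libraries), a length that includes exons the germ may not use. Plxnb2, a receptor for class 4 semaphorins, stood first at 65.1 CPM per kb, and Ephb4, the receptor for ephrin-B2 that marks veins, followed at 58.1. Within the other subfamilies the highest levels were those of Unc5b at 37.0, Efna4 at 35.8, Efnb1 at 33.1, Sema3f at 30.3, Slit3 at 19.5, Ntn3 at 18.8, Robo1 at 16.4, Nrp2 at 15.7 and Epha2 at 14.2 CPM per kb. Every subfamily thus had at least 1 member well above the detection limit. Epha6, Epha8, Epha10 and Plxnb3 averaged under 50 counts per library, and Epha6 passed the filter for testing (0.269 CPM in at least 2 libraries) in only 3 libraries.

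The first comparison asks which cues and receptors differ between the libraries labelled upper and those labelled lower, with labelled stage in the fit. Of the 68 genes, 23 (33.8%) were higher in labelled upper, against 18.1% of all 16287 genes tested, and 12 (17.6%) were higher in labelled lower, against 18.1% of all genes (edgeR's quasi-likelihood test, Benjamini-Hochberg adjusted p under 0.05). In either direction this is 35 members (51.5%), against 36.2% of all genes. The median difference of labelled upper minus labelled lower was 0.04 on the log2 scale for the 68 genes and 0.01 for all genes, and the median size of the difference, without its sign, was 0.20 and 0.14. Among the ligands 14 of 35 were higher and 4 lower in labelled upper, and among the receptors 9 of 33 were higher and 8 lower. All 8 libraries labelled upper lay above all 8 labelled lower for 6 members (8.82%, against 2.89% of all genes), and below them for 4 members (5.88%, against 3.52%). In bulk tissue, fewer cells of a type and less RNA per cell cannot be told apart.

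Slit2 and Sema4f had the smallest p-values of the ligands lower in labelled upper, and Ntn3 and Sema3d those of the ligands higher in it, so the promoters of these 4 genes are shown, from 250 bases before to 50 bases after the annotated start (RefSeq, GRCm38.p6). Capitals mark matches, on either strand, to the GC box GGGCGG or the TATA box TATAAA.
Slit2: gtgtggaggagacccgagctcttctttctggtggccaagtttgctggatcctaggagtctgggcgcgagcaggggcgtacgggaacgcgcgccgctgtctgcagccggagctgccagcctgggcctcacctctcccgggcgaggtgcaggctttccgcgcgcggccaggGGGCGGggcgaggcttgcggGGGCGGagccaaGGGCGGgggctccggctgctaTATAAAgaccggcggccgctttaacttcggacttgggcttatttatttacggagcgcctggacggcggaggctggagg
Sema4f: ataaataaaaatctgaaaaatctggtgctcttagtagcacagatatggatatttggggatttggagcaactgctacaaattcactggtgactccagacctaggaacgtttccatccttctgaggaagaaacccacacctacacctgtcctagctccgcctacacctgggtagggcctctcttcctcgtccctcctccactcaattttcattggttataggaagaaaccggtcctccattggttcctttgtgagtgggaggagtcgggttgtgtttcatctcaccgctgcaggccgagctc
Ntn3: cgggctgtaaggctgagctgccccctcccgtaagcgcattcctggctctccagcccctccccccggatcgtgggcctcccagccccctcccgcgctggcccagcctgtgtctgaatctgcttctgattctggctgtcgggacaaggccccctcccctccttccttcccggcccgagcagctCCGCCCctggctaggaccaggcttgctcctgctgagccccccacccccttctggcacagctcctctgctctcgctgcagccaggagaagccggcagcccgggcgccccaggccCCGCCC
Sema3d: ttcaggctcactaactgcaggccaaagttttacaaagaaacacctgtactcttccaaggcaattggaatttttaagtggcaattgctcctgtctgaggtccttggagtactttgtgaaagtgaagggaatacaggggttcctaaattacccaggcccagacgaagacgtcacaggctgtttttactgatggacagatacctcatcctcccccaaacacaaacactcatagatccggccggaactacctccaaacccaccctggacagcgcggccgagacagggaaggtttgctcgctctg
The Slit2 promoter (chr5:47982905-47983204, plus strand) held 3 GC boxes and 1 TATA box, and the Ntn3 promoter (chr17:24209338-24209637, minus strand) held 2 GC boxes. The Sema4f promoter (chr6:82939720-82940019, minus strand) and the Sema3d promoter (chr5:12382916-12383215, plus strand) held neither. GC boxes were present in 70.7% of 75 promoters of the 59 members that matched the RefSeq table and in 35.7% of all 32851 promoters of that table. The homeodomain core TAATTA was in 4% of the members' promoters and 5.29% of all, and the Tcf/Lef core CTTTGA in 6.67% and 16%, and none of the 4 windows shown holds either. TATA boxes were in 2.67% of the members' promoters and 13.6% of all. Such matches describe the letters in these windows and were tied to no measurement.

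Among the ligands, Slit2, a secreted repellent read by Robo receptors (chromosome 5, 47983138 to 48307733, GRCm38), had the widest gap. It was at 72.5, 82.2, 62.4, 84.6, 85.5, 106, 95.7 and 108 CPM from E14.5 to E18.0 in labelled upper, against 158, 196, 208, 234, 225, 283, 264 and 307 CPM in labelled lower. Every stage was lower in labelled upper and the labels did not overlap, with a difference of -1.41 ± 0.07 on the log2 scale (SE, n = 8 each, edgeR Benjamini-Hochberg adjusted p = 2.08e-08). Slit3, its relative, was at 90.4 to 159 CPM (median 103) in labelled upper and 83.5 to 165 (median 125) in labelled lower, and did not pass the test. Slit1 did not pass either.

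Semaphorins went both ways, with 7 of 20 higher and 2 lower in labelled upper. Sema3d, a class 3 secreted semaphorin, was at 35.4 to 55.6 CPM (median 46.6) in labelled upper and 18.3 to 30.1 (median 22.4) in labelled lower. The labels did not overlap, and the difference was 1.01 ± 0.11 (log2, SE, edgeR Benjamini-Hochberg adjusted p = 8.85e-06). Sema3a, the repellent known from tooth innervation, was at 106 to 157 CPM (median 125) in labelled upper and 65.0 to 110 (median 88.6) in labelled lower. It was higher in labelled upper in 8 of 8 individuals, although the ranges overlapped, by 0.58 ± 0.09 (edgeR Benjamini-Hochberg adjusted p = 0.000214). Sema6a, a transmembrane semaphorin that binds class A plexins, was at 90.7 to 161 CPM (median 111) in labelled upper and 55.2 to 89.7 (median 70.5) in labelled lower. This gave 0.71 ± 0.09 (edgeR Benjamini-Hochberg adjusted p = 4.82e-05) with no overlap. Sema3f was higher without overlap by 0.34 ± 0.05, and Sema4c by 0.16 ± 0.03 in 8 of 8 individuals; Sema6c and Sema6d also passed, but Sema6c did not without individual 4 (adjusted p = 0.0616). In the other direction, Sema4f, a class 4 transmembrane semaphorin, was at 5.26 to 11.7 CPM (median 7.98) in labelled upper and 14.7 to 24.0 (median 19.5) in labelled lower. Its labels did not overlap, and it was lower in labelled upper by a log2 difference of -1.21 ± 0.07 (edgeR Benjamini-Hochberg adjusted p = 6.60e-08). Sema4d, known as a leukocyte semaphorin that osteoclasts also make, differed by -0.19 ± 0.05 in 8 of 8 individuals. Beside it, the summed level of 6 osteoclast markers was 196 to 320 CPM in labelled upper and 251 to 1006 in labelled lower, all 6 lower in labelled upper, and 5 of 7 macrophage and leukocyte markers were also lower; their part in the result was not tested.

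**Figure D2:**
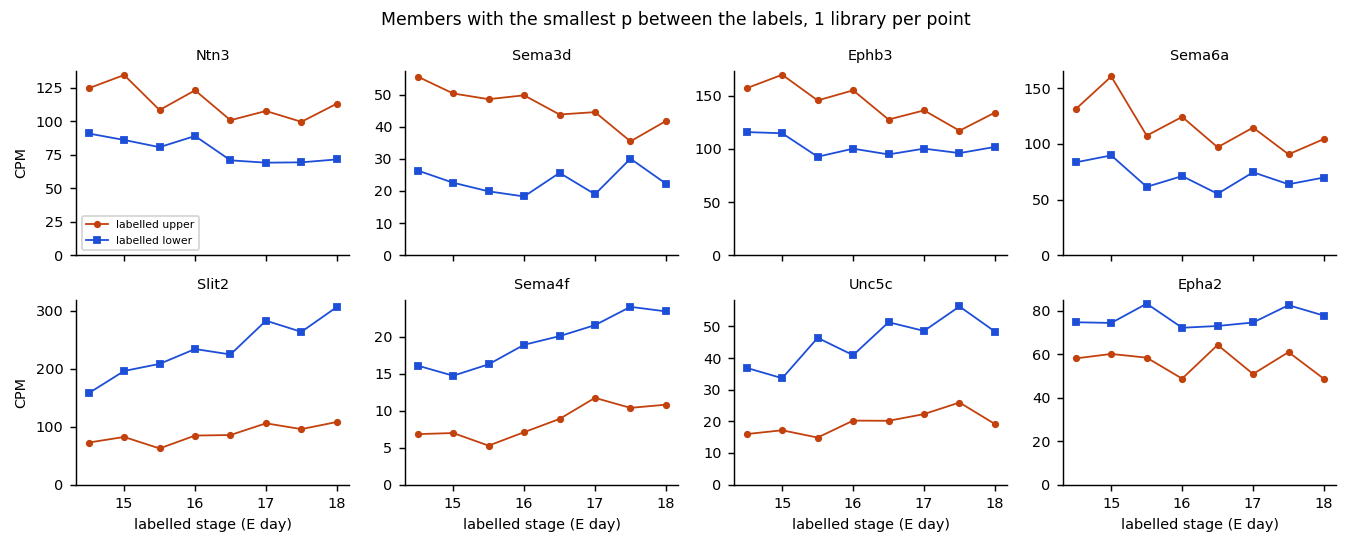
Level in CPM (vertical axis) against labelled stage (horizontal axis) for 8 members with the smallest p between the labels, 4 in each direction, 1 library per point, circles labelled upper and squares labelled lower. In every panel the 8 circles and the 8 squares do not overlap, and Slit2 lies between 62.4 and 108 CPM in labelled upper and between 158 and 307 CPM in labelled lower.

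Among the netrins, Ntn3 was at 99.6 to 134 CPM (median 111) in labelled upper and 69.1 to 90.9 (median 76.1) in labelled lower. The labels did not overlap, and the difference was 0.55 ± 0.05 (log2, SE, edgeR Benjamini-Hochberg adjusted p = 1.69e-06). Ntn5 was at 2.18 to 4.80 CPM in labelled upper and 1.44 to 2.49 in labelled lower, a difference of 0.87 ± 0.16. Since 23.4% of its exon bases overlap Sec1 on the other strand and the kit does not mark strand, reads inside that overlap cannot be assigned to 1 of the 2 genes. Ntn1, the netrin of midline guidance, spanned 14.3 to 51.6 CPM in labelled upper and 24.9 to 45.0 in labelled lower and did not pass.

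The ephrin ligands were mostly higher in labelled upper: 4 of 5 ephrin-A genes and Efnb2 passed in that direction, and Efnb1 in the other. Efna2 was at 41.4 to 51.9 CPM in labelled upper and 36.1 to 45.4 in labelled lower, a difference of 0.24 ± 0.04 (edgeR Benjamini-Hochberg adjusted p = 0.000977). Efnb2, the arterial ephrin, was at 155 to 196 CPM in labelled upper and 133 to 158 in labelled lower, a difference of 0.24 ± 0.05, and was higher in 8 of 8 individuals. Efnb1, an X-linked ephrin, was at 97.9 to 114 CPM in labelled upper and 112 to 131 in labelled lower, a difference of -0.18 ± 0.04. Efna2, Efnb2 and Efnb1 each overlapped between labels.

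Among the Eph receptors, Ephb3, a receptor for B-type ephrins, was at 117 to 170 CPM (median 141) in labelled upper and 92.7 to 116 (median 100.3) in labelled lower. The labels did not overlap, with a difference of 0.49 ± 0.05 (log2, SE, edgeR Benjamini-Hochberg adjusted p = 9.47e-06). Ephb4 was at 279 to 302 CPM in labelled upper and 224 to 271 in labelled lower, again without overlap, a difference of 0.23 ± 0.03. Epha2, a receptor for A-type ephrins common in epithelia, was at 48.6 to 64.2 CPM in labelled upper and 72.1 to 83.2 in labelled lower. It was lower in labelled upper without overlap, by a log2 difference of -0.44 ± 0.06 (edgeR Benjamini-Hochberg adjusted p = 0.000147). Ephb6, which lacks kinase activity, differed by -0.22 ± 0.07, and this call ended without individuals 1 and 2 (adjusted p = 0.0532).

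Of the 9 plexins, 1 was higher and 3 were lower in labelled upper. Plxna3, a receptor for class 3 semaphorins, was at 140 to 193 CPM in labelled upper and 121 to 144 in labelled lower, a difference of 0.32 ± 0.06. Plxnd1, the endothelial plexin, was at 252 to 320 CPM in labelled upper and 294 to 364 in labelled lower, a difference of -0.20 ± 0.05. Beside it, 9 endothelial markers summed to 393 to 465 CPM in labelled upper and 421 to 476 in labelled lower, 3 of them lower and 1 higher in labelled upper; their part was not tested. Plxnb2 differed by -0.15 ± 0.04 and Plxnc1 by -0.27 ± 0.08, the last losing its call when individual 1, 2, 3 or 4 was left out (adjusted p up to 0.0701). Neither neuropilin passed.

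Robo and Unc5 receptors included the receptors with the widest gaps. Unc5c, a netrin receptor of repulsion, was at 14.9 to 25.9 CPM (median 19.6) in labelled upper and 33.6 to 56.3 (median 47.4) in labelled lower. The labels did not overlap, with a difference of -1.22 ± 0.07 (log2, SE, edgeR Benjamini-Hochberg adjusted p = 7.92e-08). Robo1, a Slit receptor, was at 159 to 292 CPM (median 229) in labelled upper and 272 to 340 (median 303) in labelled lower, lower in labelled upper in 8 of 8 individuals by a log2 difference of -0.41 ± 0.08. Robo2, its close relative, was at 71.6 to 128 CPM (median 94.3) in labelled upper and 43.1 to 96.4 (median 63.0) in labelled lower, a difference of 0.62 ± 0.18, with 6 of 8 individuals higher in labelled upper and individuals 1 and 2 lower. Unc5b, a netrin receptor of vessels, was at 160 to 237 CPM in labelled upper, and in labelled lower at 149 and 156 CPM in individuals 3 and 4 and at 274 to 335 in the other 6. Its difference of -0.41 ± 0.12 (edgeR Benjamini-Hochberg adjusted p = 0.0172) lost its call without individuals 1 and 2 (adjusted p = 0.114). Unc5a, chosen here after its values were seen, had the largest difference, 1.48 ± 0.30, but at 0.83 to 7.53 CPM in labelled upper and 0.45 to 2.07 in labelled lower.

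**Figure D3:**
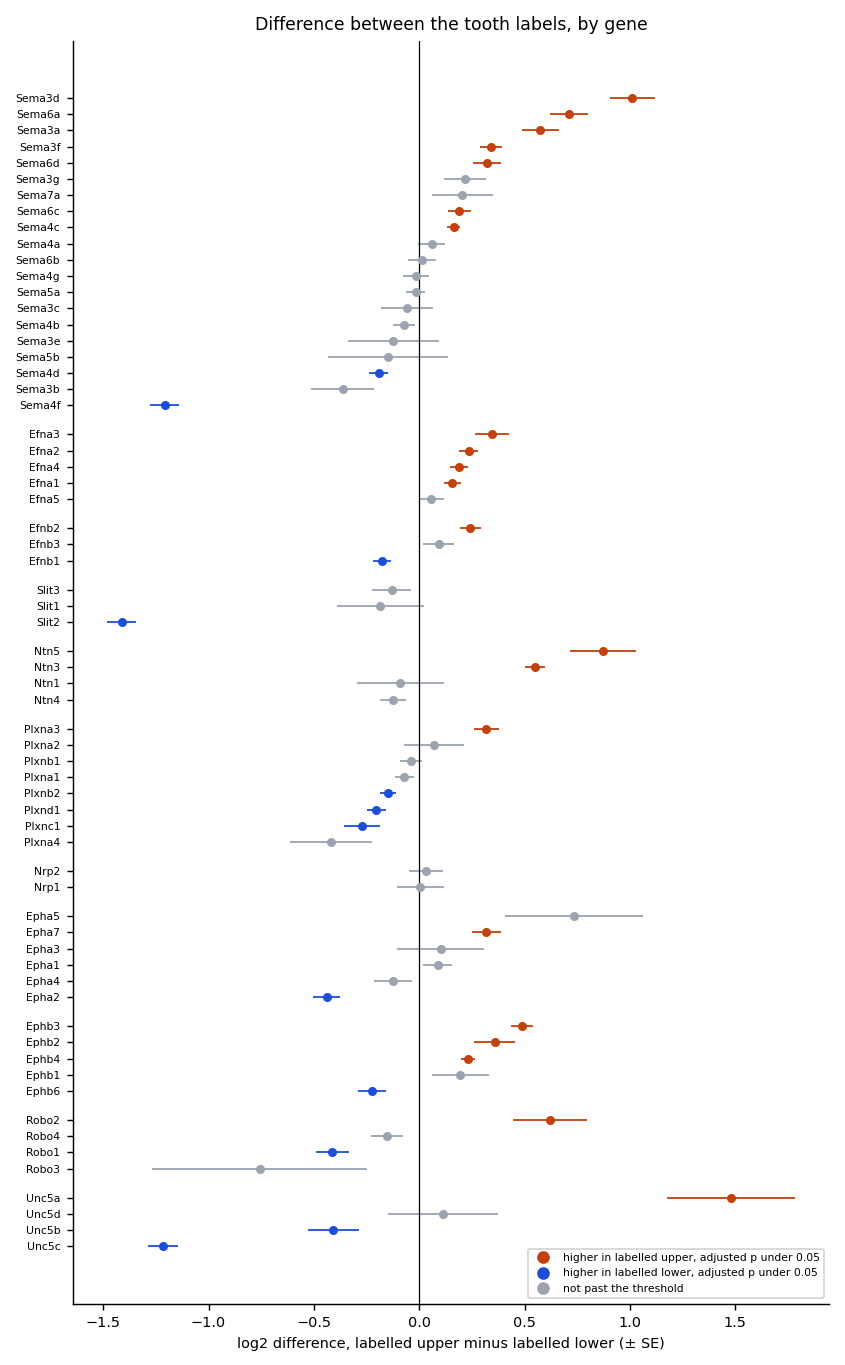
Log2 difference of labelled upper minus labelled lower (horizontal axis, points with SE) for the 64 members averaging at least 50 counts, by subfamily. Slit2, Sema4f and Unc5c lie below -1.2, and Sema3d and Unc5a above 1.

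Other marker lists that moved with the tooth label were the enamel knot list, with 5 of 8 genes lower and 1 higher in labelled upper and a sum of 390 to 562 CPM in labelled upper against 675 to 962 in labelled lower, and the oral cornifying epithelium list, with 6 of 8 lower and 0 higher and a sum of 97.3 to 511 CPM in labelled upper against 194 to 1593 in labelled lower. Of 7 pericyte and smooth muscle genes 4 were lower and 0 higher in labelled upper. Their sums were 354 to 479 CPM in labelled upper and 415 to 531 in labelled lower. Of 8 dental mesenchyme genes 4 were higher and 2 lower in labelled upper. Msx1 was higher by 1.22 ± 0.14 and Prrx1 by 1.08 ± 0.11, while Dlx2 differed by -0.41 ± 0.06 and Col1a1 by -0.34 ± 0.12. The dental mesenchyme sums were 2687 to 4758 CPM in labelled upper and 2864 to 4694 in labelled lower. Of 10 neuron genes 2 were lower in labelled upper, Tubb3 and Stmn2, and 1 was higher, Elavl4. They summed to 53.3 to 88.9 CPM in labelled upper and 74.4 to 123 in labelled lower, with medians of 0.13 and 0.05 CPM for Isl1, 0.30 and 0.44 for Elavl3 and 0.21 and 0.18 for Pou4f1. Isl1, Elavl3 and Pou4f1 were thus near 0 in both labels. Not all of the list was this low: in labelled upper and labelled lower the medians were 37.9 and 63.1 CPM for Tubb3, 21.9 and 18.5 for Gap43 and 4.48 and 13.5 for Stmn2. The part of any of these cell types in the members' differences was not tested.

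The second question is how the members follow the stage-to-stage alternation of Pou3f3. Each label gives 7 steps between neighbouring stages, 14 in all, and a gene was counted as moving with Pou3f3 at a step when both went up or both went down. At 12 or more of 14 steps, 32 of 68 members moved with Pou3f3 (47.1%, against 15.2% of all genes), and 6 moved against it (8.82%, against 12.6%). At all 14 steps, 14 members moved with it (20.6%, against 4.53%) and 1 against it (1.47%, against 2.73%). These are counts without a test, since libraries were not regrouped by Pou3f3.

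Of these 32 members, 11 were Eph receptors. At 12 or more steps 5 of 5 EphB genes and 6 of 9 EphA genes moved with Pou3f3, as did 9 of 20 semaphorins. Among these 6 EphA genes Epha6 and Epha8 averaged only 5.56 and 23.3 counts per library, so their steps rest on few reads. Ephb2 was at 91.3, 107, 84.3, 99.4, 81.4, 96.0, 79.0 and 90.0 CPM from E14.5 to E18.0 in labelled upper, against 73.2, 84.7, 63.5, 84.5, 61.8, 82.8, 49.9 and 70.2 in labelled lower. It moved with Pou3f3 at all 14 steps, as did Efnb3, Epha3, Epha8, Ephb1, Ephb4, Ephb6, Nrp1, Robo2, Sema3e, Sema3g, Sema6a, Unc5a and Unc5d. The opposite pattern was that of Efna1, an A-type ephrin, at 51.5, 45.9, 51.7, 48.9, 51.8, 49.0, 49.6 and 42.2 CPM in labelled upper, against 46.8, 44.1, 45.9, 43.8, 46.9, 40.4, 44.2 and 39.6 in labelled lower. It moved against Pou3f3 at all 14 steps. Epha1, Plxnb1 and Plxnb2 moved against it at 13 steps, and Efnb2 and Sema4a at 12.

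Tissue markers alternated too. The sum of 8 dental or oral epithelium markers moved against Pou3f3 at 7 of 7 steps in each label, between 2859 and 4985 CPM in labelled upper and between 3681 and 5119 in labelled lower. The sum of 8 dental mesenchyme markers moved with it at 7 of 7 steps in each label. It lay between 2687 and 4758 CPM in labelled upper and between 2864 and 4694 in labelled lower. The neuron sum and the osteoblast and bone sum also moved with Pou3f3 at 7 of 7 steps in each label. At 12 or more steps, 7 of 8 epithelium genes moved against Pou3f3 and 6 of 8 mesenchyme genes moved with it. Of 10 neuron genes 5 moved with it, and of 7 osteoblast and bone genes 2 moved with it and 1 against. In labelled upper and labelled lower the enamel knot sum moved against it at 6 and 7 of 7 steps. The pericyte and smooth muscle sum moved with it at as many. Osteoclast and macrophage sums moved with it at 6 of 7 steps in labelled upper and against it at 7 of 7 in labelled lower. The part of the mix of tissues in the members' alternation was not tested.

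**Figure D4:**
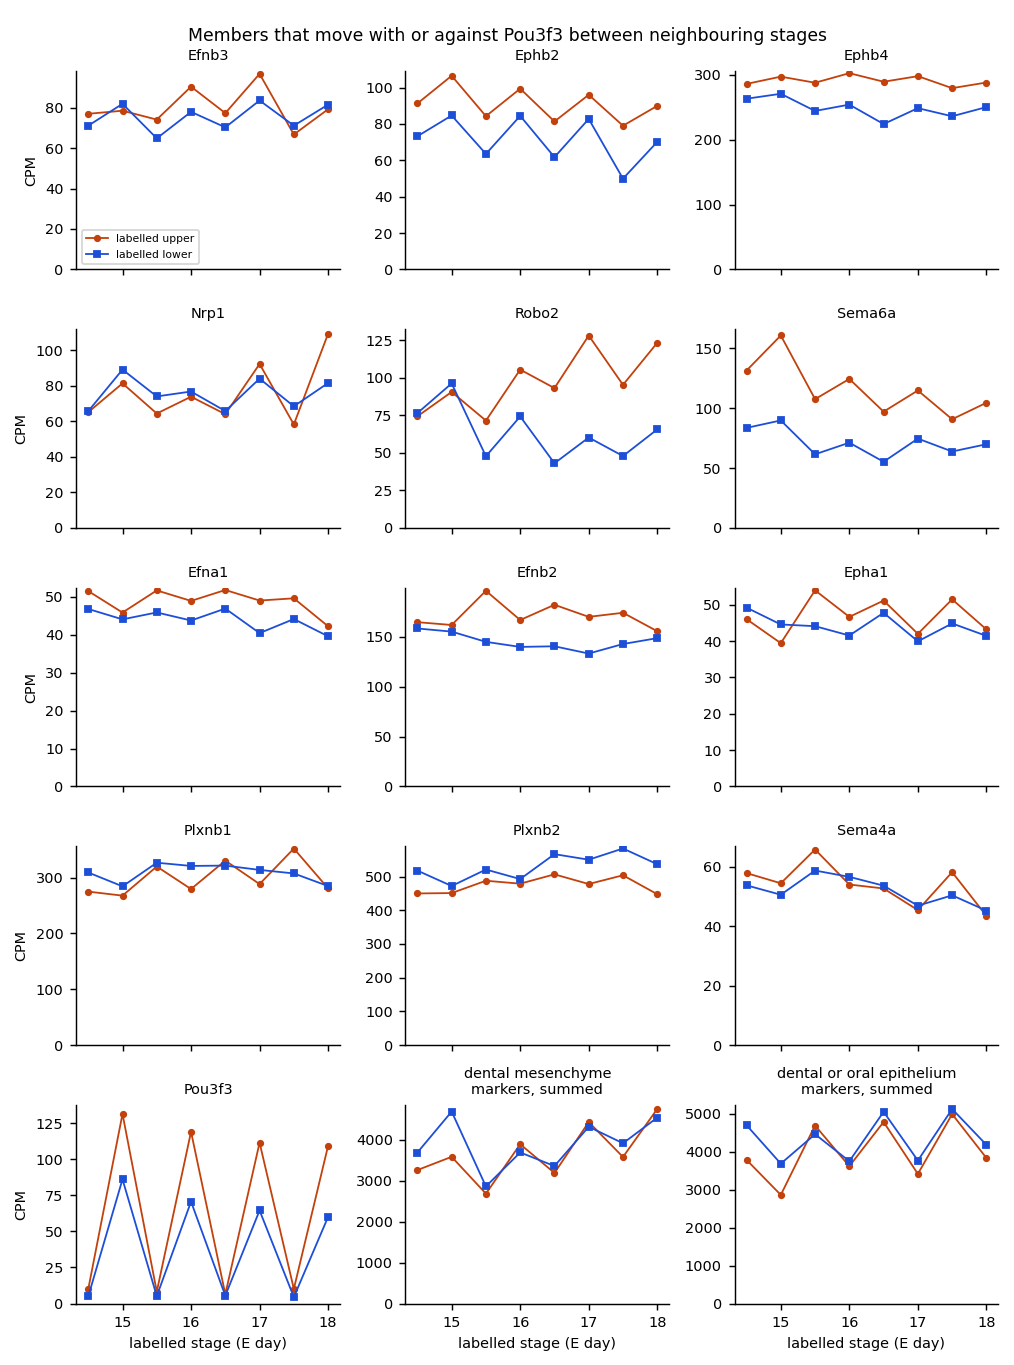
Level in CPM (vertical axis) against labelled stage (horizontal axis) of 12 members that moved with or against Pou3f3, of Pou3f3 itself and of the summed dental mesenchyme and epithelium markers, 1 library per point, circles labelled upper and squares labelled lower. Ephb2 goes up and down with Pou3f3 at all 14 steps and Efna1 against it at all 14.

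The third question is which members change with labelled stage inside each label, as a slope in log2 per embryonic day. In labelled upper 5 members rose (7.35%, against 3.73% of all genes) and 2 fell (2.94%, against 2.42%), and in labelled lower 3 rose (4.41%, against 2.63%) and 2 fell (2.94%, against 1.49%) (edgeR, Benjamini-Hochberg adjusted p under 0.05). In either direction 7 members were called in labelled upper (10.3%, against 6.15% of all genes) and 5 in labelled lower (7.35%, against 4.11%). The median slope of the members was 0.01 in labelled upper and 0.02 in labelled lower, beside 0.0007 and 0.0009 for all genes. Stage is confounded with sequencing lane, since each lane holds the first or the last 4 stages of a label. With lane as a term all 4 counts of members were 0, and over all genes 1 rose and 1 fell in labelled upper and 16 rose and 3 fell in labelled lower. Without individuals 1 and 2 the 4 counts of members were also 0. Over all genes 15 then rose and 3 fell in labelled upper, and 1 rose and 0 fell in labelled lower. Stage also goes partly with the alternation, since Pou3f3 was high in individuals 2, 4, 6 and 8 and so at the last stage of each lane. The slope fits held no term for it, and its part in the slopes was not tested. Of the members called for a slope, Slit2 and Sema3c moved with Pou3f3 at 12 of 14 steps.

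Slit2 rose in both labels, by 0.17 ± 0.04 per day in labelled upper (SE, edgeR Benjamini-Hochberg adjusted p = 0.0461) and by 0.24 ± 0.03 in labelled lower (adjusted p = 0.00587). Within the first and the second lane its slopes were 0.06 and 0.17 in labelled upper and 0.36 and 0.26 in labelled lower. Robo1, its receptor, rose by 0.23 ± 0.03 in labelled upper (edgeR Benjamini-Hochberg adjusted p = 0.00531), with lane slopes of 0.23 and 0.14, and kept its call whichever individual was left out. Sema4f rose by 0.21 ± 0.03 in labelled lower (edgeR Benjamini-Hochberg adjusted p = 0.0115), with lane slopes of 0.17 and 0.17, and also kept its call. Of the 12 slope calls, 11 had the same sign in both lanes. The lane slopes come from the same libraries that gave the calls, so this count is no separate support for them.

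The other calls changed with the individuals kept. Slit2 in labelled upper lost its call in 6 of the 8 fits that each left out an individual. Unc5b rose in labelled upper by 0.15 ± 0.02 but not without individual 1, and Sema7a, a membrane-anchored semaphorin, fell there (slope -0.35 ± 0.07) but not without individual 1 or 8. Sema7a was at 54.9, 78.2, 46.2, 39.5, 31.4, 32.8, 32.1 and 30.6 CPM from E14.5 to E18.0 in labelled upper, high in the first 2 stages. Sema3d fell in labelled upper (slope -0.14 ± 0.03) but not without individual 1, 2 or 8. Sema3c, a class 3 semaphorin, rose in labelled upper by 0.21 ± 0.05, and Ntn4, a basement membrane netrin, rose in labelled lower by 0.16 ± 0.03; each kept its call in only 1 of the 8 fits that left out an individual. Robo3, a Robo receptor of low level here, rose in labelled upper by 0.95 ± 0.22, with 6.88 CPM at E18.0 against 0.31 to 3.09 at the other stages, and lost its call in 6 of these 8 fits. In labelled lower Sema3f (slope -0.09 ± 0.02) and Ntn3 (slope -0.11 ± 0.03) fell, each also losing its call in 6 of 8 fits, and the lane slopes of Ntn3, -0.04 and 0.02, differed in sign.

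**Figure D5:**
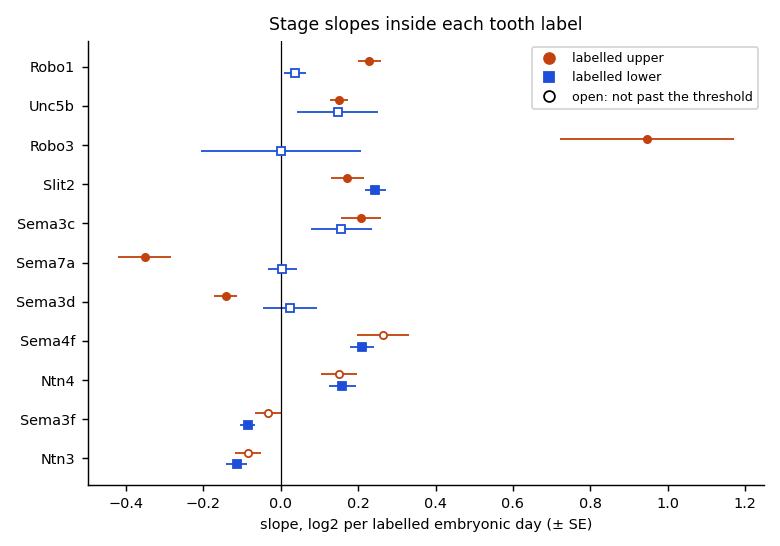
Slope with labelled stage (horizontal axis, log2 per embryonic day with SE) in labelled upper and labelled lower for the members called in either label, filled where past the threshold. Slit2 is filled in both labels, at 0.17 in labelled upper and 0.24 in labelled lower.

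No member passed for a difference in slope between the labels by edgeR's quasi-likelihood test for the interaction (0 of 68 in each direction, against 0.682% and 0.602% of all genes, 1.28% in all, Benjamini-Hochberg adjusted). At an unadjusted p under 0.05, 6 were higher (8.82%, against 7.49% of all genes) and 4 lower (5.88%, against 6.73%) in labelled upper. DESeq2 called 3 members, Robo1, Epha4 and Sema7a (4.41%, against 3.68% of all genes), and the edgeR fit with individual as a block called 3, Robo2, Sema4g and Sema7a (4.41%, against 2.92%). These shares lie near those of all genes. Sema7a was called by both, with a difference in slope of -0.34 ± 0.07 in the blocked fit (edgeR Benjamini-Hochberg adjusted p = 0.0320).

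Among other guidance genes, from a list of 67 co-receptors, cytoplasmic partners and further cues of which 65 were tested, 17 were higher (26.2%) and 14 lower (21.5%) in labelled upper, beside 18.1% of all genes in each direction, with a median difference of 0.04. Rgmb, a repulsive guidance molecule, was higher by 0.39 ± 0.05, Flrt3, an Unc5 ligand, by 0.41 ± 0.07, and Srgap3, a Robo effector, by 0.76 ± 0.13. Adam10, a protease that cleaves ephrins, was lower by a log2 difference of -0.43 ± 0.05 (edgeR Benjamini-Hochberg adjusted p = 1.75e-05), and Dpysl4, a collapsin response mediator, of -0.28 ± 0.04. Srgap1, a relative of Srgap3 named here after its values were seen, was lower in labelled upper in 8 of 8 individuals, by a log2 difference of -0.67 ± 0.10.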

How the data were processed

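The 16 deposited tables hold raw read counts per gene, made by the authors. Per the submitters' processing notes, the tools included Bowtie2 2.0.2, TopHat2 2.0.6 and HTSeq 0.5.3p9 and the build was mm10. Not given in the sources used here were the annotation, the strand option and whether single reads or pairs were tallied. Per the labels' protocols, libraries were made with the TruSeq V2 kit, which does not mark strand, and read as 100-base pairs. The 5 summary lines of each table were left out; lines for reads in no gene held 11.8 to 14.1% and ambiguous reads 0.896 to 1.07%. No 2 of the 120 pairs of libraries held identical counts.

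For the tests, edgeR 4.0.16 (R 4.3.3) was run on these counts: genes with at least 0.269 CPM in 2 libraries, TMM scaling, a quasi-likelihood fit of tooth label and a spline of stage (3 degrees of freedom), a linear slope inside each label, and the interaction of both, with Benjamini-Hochberg adjustment over all genes at 0.05. DESeq2 1.42.0, RLE scaling, other filters, lane as a term, individual as a block and leaving out each individual were alternatives; the fit without individuals 1 and 2 was added after seeing the data. Each SE given is the size of the log2 value divided by the square root of the quasi-likelihood F statistic of its fit. The code was tested on simulated counts. Per the labels the same-numbered libraries come from 1 embryo. Their deviations from the label means correlated at r = 0.121 to 0.279 in all 8 pairs. Only in 4 of the 8 pairs was the same-numbered library labelled lower the best match of the library labelled upper. These deviations also hold any alternation or stage trend that the labels share. Deviations from a smooth stage curve of each label correlated at r = 0.149 to 0.405. There the same-numbered library was the best match only for individuals 2 and 6, and any shared alternation remains in them.

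Members and gene lists were chosen with earlier results of these data known. Named were the 12 members with the smallest p in each direction between labels (mean of at least 50 counts), all members called for a slope, the member highest per length of each subfamily, and up to 6 members moving with and 6 against Pou3f3 at the most steps (at least 12); exon lengths and gene positions are from GENCODE on GRCm38. A gene that would be named in the wider guidance list is not reported here.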

Additional observations from a re-analysis of the deposited data

Results flagged for a closer look

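In 78 groups of 8 libraries, of the 39 members named by rule in each label, 3 libraries stood apart from the other 7 of their label; chance alone flags about 1 group in 20. Efna4 was at 71.0 CPM in the library labelled upper of individual 3 (E15.5), where the next highest was 62.5 CPM. Robo3 was at 6.88 CPM in the library labelled upper of individual 8 (E18.0), where the next highest was 3.09 CPM. Robo3 was also at 5.15 CPM in the library labelled lower of individual 6 (E17.0), where the next highest was 2.31 CPM.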

How the results depend on the processing

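Counts of members higher in labelled upper or higher in labelled lower were 23 and 12, and came to 21 to 24 and 11 to 12 when 1 individual was left out; Plxnc1, Epha8 and Sema6c each lost a call in at least 1 such fit. Without individuals 1 and 2 they were 22, all among the 23, and 11, of which 9 were among the 12. With the individual as a replicate block, the pairing gave 24 and 14, adding Epha5, Plxna4 and Plxnb3, and lost no named call. The block called 2 and 1 members for a slope that was higher in labelled upper or higher in labelled lower, and DESeq2 1 and 2, where the unblocked edgeR fit called 0 and 0. DESeq2 called 12 rising (17.6%, against 7.12% of all genes) and 9 falling (13.2%, against 5.45%) in labelled upper. In labelled lower it called 9 rising (13.2%, against 6.18%) and 3 falling (4.41%, against 4.75%). Lane as a term gave 0 in all 4 slope counts, as did leaving out individuals 1 and 2. RLE scaling gave 1 and no filter 0 members falling in labelled lower. Leaving out 1 individual gave 1 to 6 rising and 0 to 3 falling in labelled upper, and 2 to 5 rising and 0 to 2 falling in labelled lower. The cause of these changes was not tested. With 1 embryo per stage and label, tooth label confounded with flow cell, and labels that Pou3f3 and Xist go against, the differences are between sets of libraries as labelled. Epha6, Epha8, Epha10 and Plxnb3 are limited by counts.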

Other observations

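Slit1, a Slit of low level here, alternated in 1 label more than in the other. It was at 3.44, 2.57, 7.05, 3.20, 6.58, 3.25, 5.42 and 2.84 CPM from E14.5 to E18.0 in labelled upper, and at 3.65, 3.37, 4.31, 4.64, 6.60, 6.03, 5.22 and 5.58 CPM in labelled lower. It moved against Pou3f3 at 7 of 7 steps in labelled upper and at 4 of 7 in labelled lower. The difference between the labels was not tested, and the gene was chosen after its values were seen.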
